A study of Oryza sativa Indica Group with 8 samples.

Results

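Leaf messenger RNA of rice plants that met salt shock once, at the reproductive R0-R1 stage, was compared with that of control plants irrigated with water and nutrient solution throughout. The comparison used 2 libraries of each group, 4 of the 8 libraries in the series, chosen by the sample titles. Every plant in the series was of the indica genotype BRS Ligeirinho, labelled sensitive to salt stress, and was grown in washed sand in a greenhouse. The other 4 libraries, 2 from plants shocked at both the vegetative V4 and the reproductive stage (double shock) and 2 from plants shocked at the vegetative stage alone, entered the same fit and are described only beside the loci that changed here. No source used here gives the salt dose, how long the shock lasted, the time from shock to leaf collection or the hour of collection, so a difference in collection time cannot be told apart from the shock. Nor do the labels name separate plants for the 2 libraries of a group. The p-values then cover the spread between libraries, and that spread may be technical.

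Leaves reduce nitrate in sequence. Nitrate reductase makes nitrite in the cytosol, nitrite reductase turns nitrite into ammonium in the plastid with electrons from ferredoxin, and glutamine synthetase and glutamate synthase build the ammonium into amino acids. Jasmonate signalling is held back by JAZ proteins, which bind the factor MYC2 and which jasmonate itself induces. Abscisic acid, the hormone of water deficit and salt, is made through NCED enzymes and broken down by abscisic acid 8'-hydroxylases. Type-A response regulators are early targets and negative regulators of cytokinin signalling. HKT transporters and the NHX and SOS1 proteins move sodium across membranes.

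The files give loci by LOC_Os identifier and pair none with a gene name. Names below are published assignments of those identifiers, stated as background. A gene table of the japonica assembly ASM3414082v1 held 245 of the 384 names used, 243 of them on the chromosome that the identifier gives, which checks the chromosome and not the locus. The table did not hold the names used for both nitrite reductases, PEPC, PEPC kinase, G6PDH and lipoxygenase, and its only entry named ferredoxin lies on another chromosome than the ferredoxin locus described here.

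After the reproductive shock 112 of 18251 loci tested changed, 0.614% of them (edgeR quasi-likelihood test, Benjamini-Hochberg adjusted p below 0.05). The loci that rose numbered 41 (0.225%) and those that fell 71 (0.389%). Of the risers 25 changed at least 2-fold and 9 at least 4-fold, and of the fallers 58 and 27. The loci that rose had a median level in shocked leaves of 52.8 CPM (reads scaled by library size) and 28.0 CPM in control leaves, and those that fell 13.2 CPM in shocked leaves and 33.7 CPM in control leaves. All 112 had both libraries of one group above both of the other, as did 45.3% of all loci tested (22.2% higher and 23.1% lower in shocked leaves). The counts rest on each library: without reproductive-shock library 1 the test called 1 locus, without reproductive-shock library 2 it called 3, without control library 1 it called 74, and without control library 2 it called 14. Of the 21 loci described below, ferredoxin kept its call without each of the 4 libraries in turn. NiR2 lost its call without reproductive-shock library 1, and the other 19 lost theirs without either reproductive-shock library. Without control library 1 the call was lost at 10 of the 21, and without control library 2 at 13.

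The libraries held 10464740 to 11727657 counted reads, and the limit of 3 reads allowed by a count of 0 came to 0.246 to 0.293 CPM, for counting error only. The share of reads aligned to more than 1 place was 9.51% and 13.8% in reproductive-shock libraries 1 and 2, and 13.5% and 9.60% in control libraries 1 and 2, so each group held a library of each kind. Since no called locus overlapped between the groups, the sign of its difference within each kind was fixed. The median log2 difference of the risers was 1.01 between the libraries with the lower share and 1.23 between those with the higher share, and that of the fallers was -1.66 and -1.47. The part of this share in the changes was not tested by these values. The 18 leaf genes listed (Rubisco small subunits, Rubisco activase, light-harvesting proteins and PsbS) summed to 118777 to 154355 CPM in shocked and 101291 to 131119 CPM in control leaves, and Lhcb1.3 was at 0 in every library. None of the markers tested was called. The 7 senescence genes summed to 362 to 377 CPM in shocked and 354 to 378 CPM in control leaves. Within that sum SGR was lower, with 4.98 and 5.06 CPM in shocked and 8.11 and 14.6 CPM in control leaves. NYC1 (104 and 106 against 94.3 and 86.1 CPM) and NAP (17.6 and 19.8 against 16.8 and 17.2 CPM) were higher in shocked leaves. These genes did not overlap between the groups, as 45.3% of all loci tested did not, and the other senescence genes overlapped. The 4 root genes summed to 23.3 to 24.5 CPM in shocked and 20.7 to 28.4 CPM in control leaves, with NRT2.1 at 0 throughout. The 3 apex and panicle genes MADS14, MADS15 and MADS18 summed to 788 to 835 CPM in shocked and 562 to 688 CPM in control leaves. These last sums did not overlap, and the part of that difference in the changes described here was not tested. In whole leaf tissue, fewer cells of a type and less RNA per cell cannot be told apart.

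**Figure D1:**
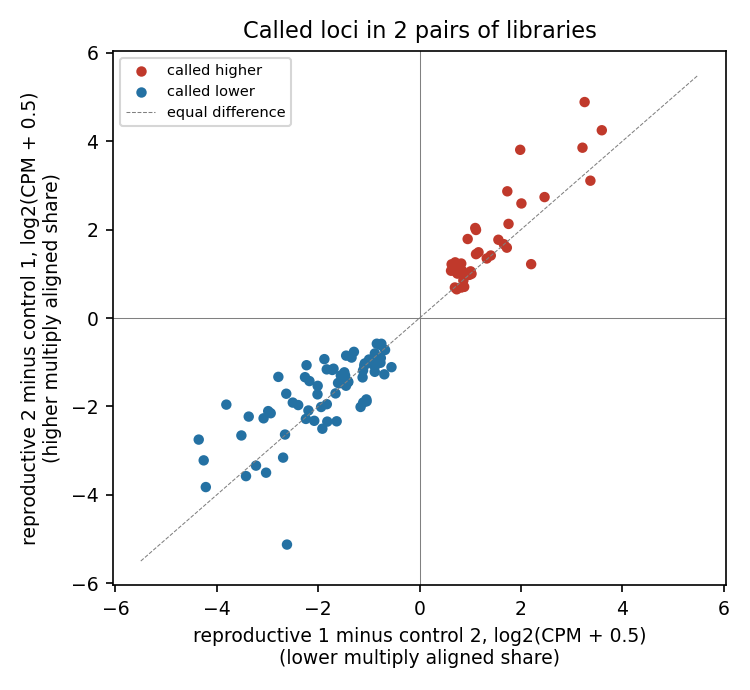
Difference between a reproductive-shock and a control library for each of the 112 loci called, in log2(CPM + 0.5). The x axis pairs the libraries with the lower share of multiply aligned reads and the y axis those with the higher share. Red points (41 loci called higher) lie above 0 and blue points (71 called lower) below 0 on both axes, as calls without overlap must, and the dashed line marks equal differences. The medians were 1.01 and 1.23 for the risers and -1.66 and -1.47 for the fallers on the x and y axes.

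Of the 377 genes listed by pathway, 306 had enough reads to be tested and 71 had not. Among those tested 2 rose and 8 fell, which is 3.27%, against 0.614% of all loci. The lists were drawn up with earlier results of these data known, so the share is a description. The median log2 fold change was 0.02 over the listed genes and -0.00 over all loci tested. In 38 of the 46 lists, with 246 genes tested, no gene was called. Most calls of listed genes were lost without reproductive-shock library 1, and most without reproductive-shock library 2. Some were lost without control library 1 and some without control library 2. Of the risers, PDC2 lost its call in each of these fits, and RR10 kept its call only without control library 1. Each such fit leaves 1 library in a group.

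**Figure D2:**
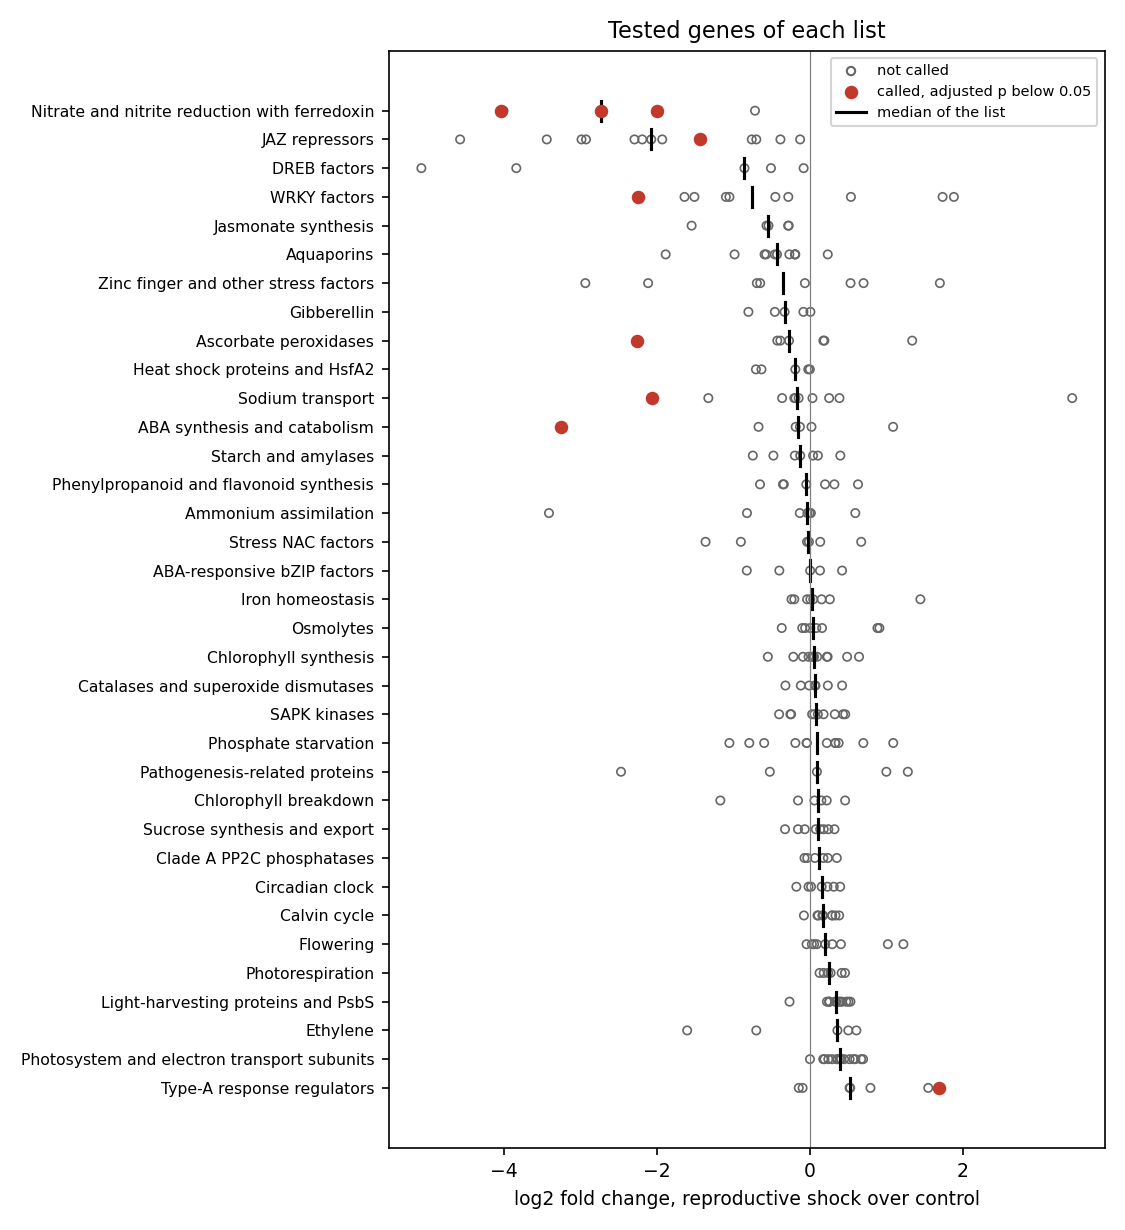
Log2 fold change, reproductive shock over control, of the tested genes in each of the 35 lists with at least 5 of them, ordered by the list's median (black tick). Filled red points passed the test and open points did not, and the open point of NIA2 lies behind that of ferredoxin. The nitrate and nitrite reduction list and the JAZ list have the lowest medians, -2.73 and -2.07, and the response regulator list has the highest, 0.53.

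Both nitrite reductase genes and a ferredoxin gene fell after the shock. The list for nitrate and nitrite reduction with ferredoxin has 5 genes, all tested, of which 3 fell and none rose, and the median log2 fold change was -2.73. The ferredoxin gene at LOC_Os01g64120 had 17.401 and 25.5 CPM in shocked leaves and 368 and 332 CPM in control leaves. It fell 16.4-fold (log2 fold change -4.03, SE 0.24, adjusted p = 0.00093), the smallest adjusted p of all loci. NiR2 (LOC_Os02g52730), a ferredoxin-nitrite reductase, had 11.9 and 15.2 CPM in shocked leaves and 75.1 and 104 CPM in control leaves. In both genes the libraries of the groups lay far apart. NiR2 fell 6.62-fold (-2.73, SE 0.19, adjusted p = 0.0022). The other nitrite reductase, NiR1 (LOC_Os01g25484), had 131 and 262 CPM in shocked leaves and 660 and 905 CPM in control leaves. It fell 3.99-fold (-1.995, SE 0.32, adjusted p = 0.036), and its shocked libraries differed by more than those of NiR2. Without reproductive-shock library 2 its log2 fold change was -2.58. With a term for libraries of multiply aligned share above 12% in the model, its adjusted p was 0.065.

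Nitrate reductase itself was not called. NIA1 had 113 and 201 CPM in shocked leaves and 187 and 328 CPM in control leaves, so the groups overlapped (-0.72, SE 0.35, adjusted p = 0.40). NIA2 was near the counting limit, with 0.17 and 0 CPM in shocked leaves and 1.84 and 1.43 CPM in control leaves (adjusted p = 0.12). None of the 7 tested genes of ammonium assimilation passed, and their median was -0.03. Plastid glutamine synthetase GS2 had 2955 and 3425 CPM in shocked and 2825 and 3564 CPM in control leaves (-0.00, SE 0.20). Ferredoxin-dependent glutamate synthase gave 0.01 (SE 0.21) and cytosolic GS1;1 -0.03 (SE 0.13). For these genes the groups overlapped. NADH-dependent glutamate synthase NADH-GOGAT1 had 58.0 and 67.4 CPM in shocked leaves and 123 and 98.1 CPM in control leaves, without overlap (-0.82, SE 0.21, adjusted p = 0.13), and DESeq2, which called 1.22% of all loci lower, called it lower. The asparagine synthetase AS1 had the lowest log2 fold change of the list, -3.41 (SE 1.13, adjusted p = 0.22), with 0.09 and 0.10 CPM in shocked leaves and 1.84 and 0.29 CPM in control leaves, near the counting limit.

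PEPC, PEPC kinase, G6PDH, PPDKB, lipoxygenase, CIPK14 and CIPK15 belong to no list and were named only after their values had been seen, so they are described one by one and stand for no pathway. PEPC (LOC_Os08g27840), a phosphoenolpyruvate carboxylase, which makes the oxaloacetate that feeds amino acid synthesis, had 330 and 368 CPM in shocked leaves and 706 and 659 CPM in control leaves. It fell 1.96-fold (-0.97, SE 0.14, adjusted p = 0.023). PEPC kinase (LOC_Os02g41580), of the family that phosphorylates and activates that enzyme, had 3.93 and 4.38 CPM in shocked leaves and 23.3 and 20.5 CPM in control leaves. Its groups were separated by more than the distance between libraries of either, and it fell 5.26-fold (-2.39, SE 0.28, adjusted p = 0.012). G6PDH (LOC_Os07g22350), a glucose-6-phosphate dehydrogenase that supplies NADPH, had 20.3 and 23.6 CPM in shocked leaves and 35.6 and 36.8 CPM in control leaves. It fell 1.65-fold (-0.72, SE 0.12, adjusted p = 0.042).

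PPDKB (LOC_Os05g33570), a pyruvate orthophosphate dikinase, which regenerates phosphoenolpyruvate, had 1236 and 1285 CPM in shocked leaves and 553 and 720 CPM in control leaves. It rose 1.98-fold (0.99, SE 0.17, adjusted p = 0.043). PDC2 (LOC_Os03g18220), a pyruvate decarboxylase of fermentation, had 49.8 and 46.6 CPM in shocked leaves and 28.4 and 27.6 CPM in control leaves. Each group was tight, and PDC2 rose 1.72-fold (0.78, SE 0.13, adjusted p = 0.043). Its partner in fermentation, the alcohol dehydrogenase ADH1, had 13.1 and 5.84 CPM in shocked and 10.04 and 7.72 CPM in control leaves, with overlap (adjusted p = 0.96). PPDKB and G6PDH lost their calls in 12 and 11 of 18 alternative settings and PDC2 in 8, without a change of direction. Their groups did not overlap, so a change of direction was hardly possible. The setting with a minimum log2 fold change of 1 kept the main fit, and these genes lay below it, so that loss was fixed. With a term for libraries of multiply aligned share above 12% in the model, the adjusted p was 0.060 for PPDKB, 0.062 for G6PDH and 0.064 for PDC2.

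**Figure D3:**
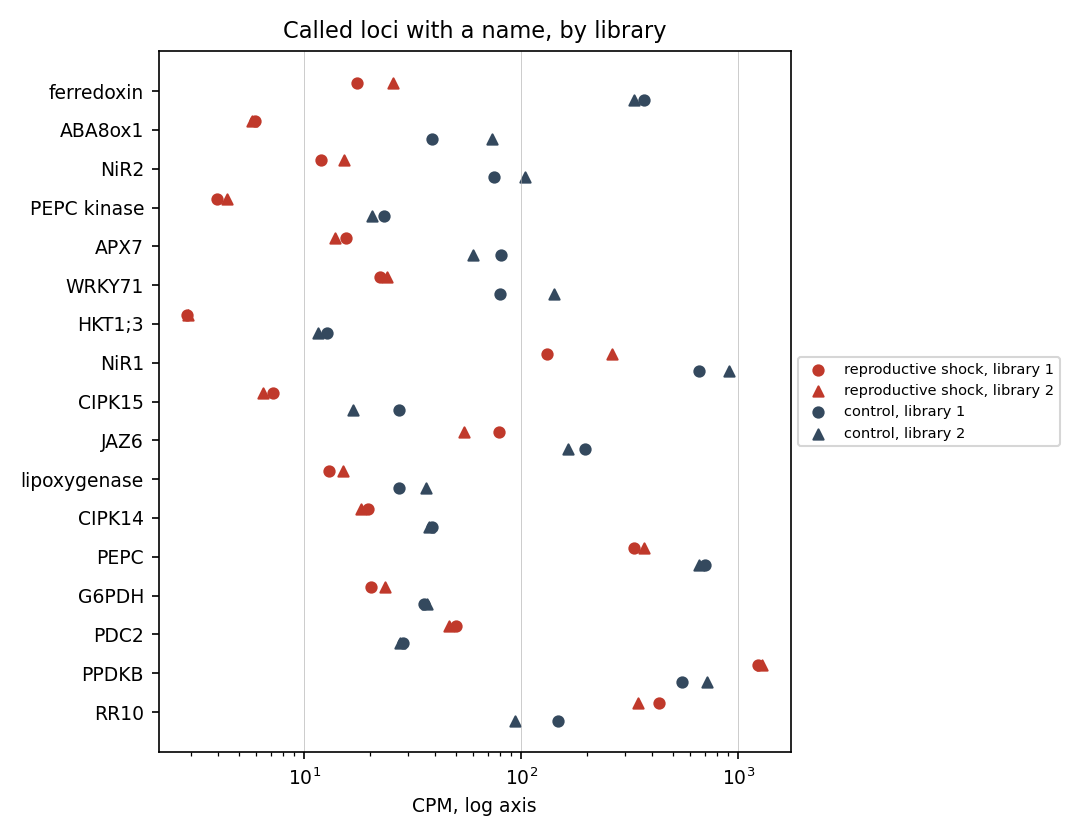
Level in each library of the 17 called loci that carry a name, in CPM on a log axis, ordered from the strongest fall (top) to the strongest rise (bottom). Red is reproductive shock and dark blue is control, with circles for library 1 and triangles for library 2. For ferredoxin, ABA8ox1 and NiR2 the groups lie widest apart, and for G6PDH and PDC2 they lie close.

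In abscisic acid metabolism 1 of 6 tested genes fell and none rose. ABA8ox1 (LOC_Os02g47470), an abscisic acid 8'-hydroxylase, had 5.95 and 5.74 CPM in shocked leaves and 38.9 and 73.2 CPM in control leaves. The shocked libraries were nearly equal and the control libraries differed from each other. ABA8ox1 fell 9.56-fold (-3.26, SE 0.32, adjusted p = 0.010). The other hydroxylases did not pass: ABA8ox2 had 15.9 and 18.6 CPM in shocked and 16.1 and 21.7 CPM in control leaves, with overlap. ABA8ox3 had 13.1 and 18.7 CPM in shocked leaves and 4.10 and 11.0 CPM in control leaves (1.09, SE 0.39, adjusted p = 0.26). The synthesis gene NCED1 had 1244 and 1270 CPM in shocked leaves and 1120 and 1357 CPM in control leaves, again overlapping, and NCED3 was below 3 CPM in all 4 libraries. Further down the abscisic acid pathway, none of the 10 SAPK kinases, 6 clade A PP2C phosphatases and 5 abscisic acid-responsive bZIP factors tested was called. Their median log2 fold changes were 0.08, 0.12 and 0.00. Of the 7 dehydrin, LEA and SalT genes 2 had enough reads to be tested and neither was called.

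Among sodium transport genes 1 of 10 tested fell and none rose. HKT1;3 (LOC_Os02g07830), a sodium transporter, had 2.89 and 2.92 CPM in shocked leaves and 12.7 and 11.5 CPM in control leaves. The libraries of each group were close, and HKT1;3 fell 4.17-fold (-2.06, SE 0.20, adjusted p = 0.010). The vacuolar sodium/proton exchanger NHX1 had 16.7 and 19.7 CPM in shocked leaves and 52.4 and 38.6 CPM in control leaves, without overlap, and missed the threshold (-1.33, SE 0.25, adjusted p = 0.063). DESeq2 called HKT1;3 and NHX1 lower, against 1.22% of all loci. The plasma membrane exchanger SOS1 had 80.5 and 89.1 CPM in shocked and 86.7 and 101 CPM in control leaves (-0.15, SE 0.12), with overlap. Its kinase CIPK24 gave 0.39 (SE 0.13, adjusted p = 0.22) and NHX2 gave -0.20 (SE 0.14). NHX4 had the highest fitted log2 fold change of the list, 3.43 (SE 1.14, adjusted p = 0.23), at 0.96 and 0.19 CPM in shocked leaves and 0 and 0.10 CPM in control leaves, near the counting limit. Unadjusted, p was 0.015 for NHX4 and 0.014 for CIPK24.

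A pair of calcineurin B-like interacting kinases fell. CIPK14 (LOC_Os12g02200) had 19.7 and 18.3 CPM in shocked leaves and 38.6 and 37.5 CPM in control leaves, a 2.0-fold fall (-1.0, SE 0.13, adjusted p = 0.019). CIPK15 (LOC_Os11g02240), known for relaying sugar and oxygen shortage in germinating rice, had 7.17 and 6.42 CPM in shocked leaves and 27.4 and 16.7 CPM in control leaves. It fell 3.25-fold (-1.70, SE 0.24, adjusted p = 0.022). In neither gene did the groups overlap. These genes are near-identical copies on duplicated ends of chromosomes 11 and 12, so the division of reads between them is uncertain.

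Of the JAZ repressors all 13 were tested and 1 fell, JAZ6. The log2 fold change was below 0 in all 13, with a median of -2.07, and 10 had an unadjusted p below 0.05, as 7.22% of all loci did in that direction. In 11 of the 13 both shocked libraries were below both control libraries, as in 23.1% of all loci tested. JAZ6 (LOC_Os03g28940) had 78.9 and 54.2 CPM in shocked leaves and 196 and 164 CPM in control leaves, and fell 2.699-fold (-1.43, SE 0.20, adjusted p = 0.022). JAZ7 had 135 and 131 CPM in shocked leaves and 242 and 191 CPM in control leaves (-0.70, SE 0.27, adjusted p = 0.28). JAZ1 overlapped between the groups, with 95.8 and 108 CPM in shocked and 118 and 105 CPM in control leaves (-0.13, SE 0.16). JAZ10 had 9.18 and 2.82 CPM in shocked leaves and 22.8 and 69.7 CPM in control leaves (-2.92, SE 0.61, adjusted p = 0.083), and JAZ3 gave -0.76 (SE 0.22, adjusted p = 0.17). JAZ9, JAZ10 and JAZ11 carry neighbouring identifiers on chromosome 3. DESeq2, which called 1.22% of all loci lower, called 4 JAZ genes lower, JAZ6, JAZ8, JAZ9 and JAZ10.

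**Figure D4:**
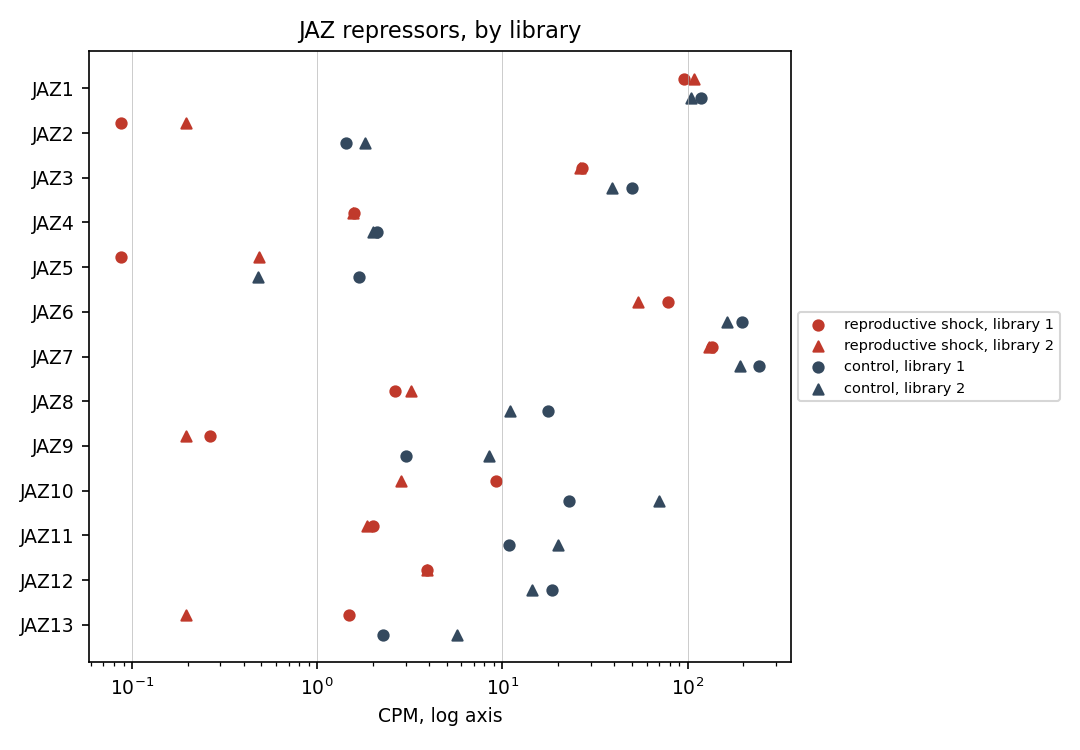
Level of the 13 JAZ repressor genes in each reproductive-shock (red) and control (dark blue) library, in CPM on a log axis, with circles for library 1 and triangles for library 2. The shocked libraries lie left of the control libraries in 11 genes, and overlap them in JAZ1 and JAZ5. JAZ6 is the one that passed the edgeR test.

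The 5 tested jasmonate genes other than the repressors were all below 0 as well, with a median of -0.54, and none passed. The conjugating enzyme JAR1 had 149 and 134 CPM in shocked leaves and 221 and 190 CPM in control leaves (-0.54, SE 0.17, adjusted p = 0.21). The factor MYC2 had 39.8 and 44.3 CPM in shocked leaves and 68.5 and 55.9 CPM in control leaves (-0.57, SE 0.16, adjusted p = 0.16). AOC and OPR7, enzymes of jasmonate synthesis, gave -0.28 (SE 0.18) and -0.28 (SE 0.15). The remaining gene, AOS1, had the lowest log2 fold change of the list, -1.54. In all 5 genes both shocked libraries were below both control libraries, as in 23.1% of all loci tested. Outside that list, lipoxygenase (LOC_Os04g37430), of the family that oxidises the fatty acids jasmonate is made from, had 13.0 and 15.0 CPM in shocked leaves and 27.4 and 36.4 CPM in control leaves. Its groups did not overlap, and it fell 2.28-fold (-1.19, SE 0.17, adjusted p = 0.023).

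Of 10 WRKY factors tested 1 fell and none rose, and the median was -0.75. The log2 fold change was below 0 in 7 and above 0 in 3, the highest at 1.88. None of those above 0 had an unadjusted edgeR p below 0.05. WRKY71 (LOC_Os02g08440), a factor of defence and hormone responses, had 22.4 and 23.9 CPM in shocked leaves and 79.6 and 141 CPM in control leaves. The shocked libraries were close and the control libraries spread, and WRKY71 fell 4.76-fold (-2.25, SE 0.26, adjusted p = 0.012). WRKY53 had 41.6 and 50.8 CPM in shocked leaves and 70.9 and 127 CPM in control leaves (-1.10, SE 0.27, adjusted p = 0.12). WRKY13 gave -0.28 (SE 0.13), WRKY24 -1.51 (SE 0.44, adjusted p = 0.18) and WRKY45, whose groups overlapped, 0.54 (SE 0.43). DESeq2 called WRKY71, WRKY53 and WRKY24 lower, against 1.22% of all loci.

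Among ascorbate peroxidases, which remove hydrogen peroxide, 1 of 7 tested fell and none rose. APX7 (LOC_Os04g35520), a chloroplast stromal form, had 15.5 and 13.8 CPM in shocked leaves and 80.8 and 59.9 CPM in control leaves. It fell 4.80-fold without overlap (-2.26, SE 0.30, adjusted p = 0.019). The others did not follow it beyond the test: APX8 gave 0.19 (SE 0.20), APX4 0.18 (SE 0.13), APX1 -0.42 (SE 0.16, adjusted p = 0.29) and APX2 -0.27 (SE 0.13). None of 7 catalases and superoxide dismutases was called.

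A cytokinin response regulator rose. Of 10 type-A regulators 7 were tested, 1 rose and none fell, and the median was 0.53. RR10 (LOC_Os12g04500) had 431 and 345 CPM in shocked leaves and 148 and 93.2 CPM in control leaves, and rose 3.22-fold (1.69, SE 0.24, adjusted p = 0.022). RR9, its near-identical copy on chromosome 11, had 249 and 199 CPM in shocked leaves and 102 and 51.1 CPM in control leaves (1.55, SE 0.31, adjusted p = 0.077). In both genes the shocked libraries lay above the control libraries, and the division of reads between the copies is uncertain. RR4 had 245 and 193 CPM in shocked leaves and 141 and 113 CPM in control leaves (0.79, SE 0.16, adjusted p = 0.076). RR2 gave 0.53 (SE 0.16, adjusted p = 0.18) and RR6 0.52 (SE 0.18, adjusted p = 0.24), also without overlap. DESeq2, which called 1.15% of all loci higher, called RR4, RR9 and RR10 higher.

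No listed gene of photosynthesis passed the edgeR test. The 15 photosystem and electron transport genes tested were all above 0, with log2 fold changes of 0.00 to 0.70 and a median of 0.39, and 8 of them did not overlap between groups, against 22.2% of all loci higher without overlap. PsaK, a subunit of photosystem I, had 3859 and 4671 CPM in shocked leaves and 2398 and 2867 CPM in control leaves (0.70, SE 0.21, adjusted p = 0.19). Of the 13 light-harvesting and PsbS genes tested 12 were above 0, with a median of 0.35, and 3 did not overlap, a share near that of all loci. DESeq2 called PsaK and PsaN higher, against 1.15% of all loci. The photosynthetic ferredoxin Fd1, a gene other than LOC_Os01g64120, gave 0.41 (SE 0.21, adjusted p = 0.42).

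None of the 7 clock genes tested passed, and their log2 fold changes lay between -0.18 and 0.40. LHY, which peaks around dawn, had 8596 and 9205 CPM in shocked leaves and 6988 and 9009 CPM in control leaves (0.15, SE 0.22), and GI, an evening gene, had 98.4 and 101 CPM in shocked and 97.8 and 128 CPM in control leaves (-0.18, SE 0.16). Both overlapped between the groups. None of the 9 flowering genes tested was called, with a median of 0.20.

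Of the 112 loci 95 carry no name here. Among these, with a mean of at least 5 CPM in the higher group, the largest rises were at LOC_Os06g04920 on chromosome 6, with 9.01 and 10.6 CPM in shocked leaves and 0.08 and 0.29 CPM in control leaves, and at LOC_Os10g42770 on chromosome 10, with 8.57 and 11.6 CPM in shocked leaves and 0.33 and 0.48 CPM in control leaves. LOC_Os06g04920 had 212 pooled reads in shocked and 4 in control leaves, a ratio of 54.8 per library size (95% exact binomial interval 21.1 to 203, counting error only; adjusted p = 0.025). Its fitted log2 fold change was 5.69, and 5.04 and 6.69 without control libraries 1 and 2. Under robust quasi-likelihood its adjusted p was 0.073. LOC_Os10g42770 rose 24.4-fold (adjusted p = 0.012). The largest falls at that minimum level were at LOC_Os07g41060 on chromosome 7 and LOC_Os08g28710 on chromosome 8. LOC_Os07g41060 had 1.14 and 1.17 CPM in shocked leaves and 57.8 and 9.53 CPM in control leaves (log2 fold change -4.86, adjusted p = 0.043). Its control libraries differed widely: the log2 fold change was -3.04 without control library 1 and -5.63 without control library 2. It lost its call in 8 of 18 alternatives, with an adjusted p of 0.15 under robust quasi-likelihood and 0.053 in the 4 libraries alone. LOC_Os08g28710 had 0.26 and 0.19 CPM in shocked leaves and 7.36 and 5.72 CPM in control leaves. Its pooled reads were 5 in shocked and 148 in control leaves, a 28.6-fold lower level (95% interval 12 to 89.5; adjusted p = 0.010).

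The same loci were read in the other shock histories, whose contrasts with the control share the control libraries of this comparison. Double shock over control called 30 loci (0.164%) and vegetative shock over control 6 (0.0329%). Of the loci called here, the double-shock contrast also called 11 of the risers and 16 of the fallers. The vegetative-shock contrast also called 1 riser and 5 fallers. Since the controls are shared, this overlap is a description and not separate evidence. Ferredoxin had 39.8 and 54.8 CPM after double shock, 232 and 193 CPM after vegetative shock and the control values given above. Its late-shock effect in plants shocked earlier, double over vegetative shock, was -2.17 (SE 0.22, adjusted p = 0.026). HKT1;3 had 2.83 and 3.20 CPM after double shock and 8.35 and 9.02 CPM after vegetative shock, and APX7 17.9 and 15.3 CPM after double shock and 49.3 and 95.9 CPM after vegetative shock. In these genes the double-shock libraries lay below both vegetative-shock libraries. Double shock over vegetative shock gave -1.52 (SE 0.20, adjusted p = 0.052) for HKT1;3 and -2.13 (SE 0.30, adjusted p = 0.060) for APX7. RR10 had 259 and 331 CPM after double shock and 76.4 and 92.7 CPM after vegetative shock. Double over vegetative shock gave 1.80 (SE 0.24, adjusted p = 0.052) for RR10. Double shock over control passed for ferredoxin, at -2.89 (SE 0.22, adjusted p = 0.0093). That contrast also passed for HKT1;3, at -2.001 (SE 0.203, adjusted p = 0.015), and for APX7, at -2.09 (SE 0.30, adjusted p = 0.045). For RR10 double shock over control did not pass, at 1.29 (SE 0.24, adjusted p = 0.095).

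WRKY71 had 31.0 and 25.0 CPM after double shock and 32.0 and 25.7 CPM after vegetative shock, below both control libraries. Its contrasts with control were -1.98 (SE 0.26, adjusted p = 0.031) for double shock and -1.94 (SE 0.26, adjusted p = 0.051) for vegetative shock. JAZ6 had 104 and 88.7 CPM after double shock and 117 and 96.8 CPM after vegetative shock, between the shocked and control values above. Neither of its contrasts with control passed, at -0.90 (SE 0.20, adjusted p = 0.15) and -0.75 (SE 0.20, adjusted p = 0.34).

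The effect of the late shock without an earlier one (reproductive shock over control) was set against its effect after an earlier one (double over vegetative shock) in the same model. Of 18251 loci 18 differed (0.0986%), and 3 of the named loci were among them. ABA8ox1 had 5.95 and 5.74 CPM after reproductive shock and 38.9 and 73.2 CPM in the control, but 19.9 and 27.7 CPM after double shock and 5.25 and 6.40 CPM after vegetative shock. The direction was opposite in the 2 pairs, -3.26 (SE 0.32) without and 2.03 (SE 0.32) with an earlier shock, a difference of -5.28 (SE 0.45, adjusted p = 0.0066). The effect with an earlier shock did not pass on its own (adjusted p = 0.083). Vegetative shock over control gave -3.26 (SE 0.32, adjusted p = 0.043). NiR2 had 36.1 and 31.6 CPM after double shock and 49.6 and 47.7 CPM after vegetative shock. Its effects were -2.73 (SE 0.19) without and -0.53 (SE 0.18) with an earlier shock, a difference of -2.20 (SE 0.26, adjusted p = 0.027). CIPK14 had 40.4 and 34.5 CPM after double shock and 30.2 and 26.5 CPM after vegetative shock, and its effects of -1.0 (SE 0.13) and 0.40 (SE 0.13) differed by -1.40 (SE 0.19, adjusted p = 0.042). For ferredoxin the difference was -1.86 (SE 0.30, adjusted p = 0.070), for lipoxygenase -1.53 (SE 0.25, adjusted p = 0.070), for CIPK15 -2.05 (SE 0.33, adjusted p = 0.070) and for WRKY71 -2.21 (SE 0.36, adjusted p = 0.072), and none of these passed.

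**Figure D5:**
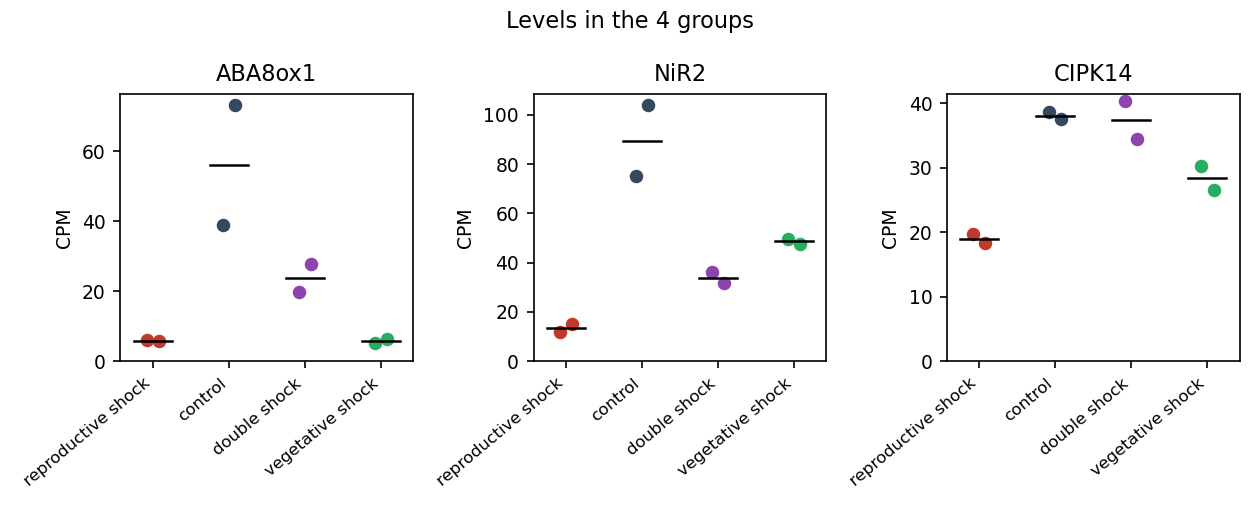
Level of ABA8ox1, NiR2 and CIPK14 in each library of the 4 groups, in CPM on axes from 0, with points for libraries and bars for the mean of 2. Each group with the late shock stands left of the one without it. ABA8ox1 is at 5.25 to 6.40 CPM in both singly shocked groups and higher in the control and double-shock groups.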

How the data were processed

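Per the labels' protocols, Illumina TruSeq libraries were prepared from total RNA of leaves. The authors deposited raw read counts per locus, 1 table per library. The submitters' processing notes name STAR 2.7, HTSeq 0.11.1, Trimmomatic, FastQC 0.11.7 and edgeR 3.8. No source used here gives the genome build, annotation or strand setting, so overlapping loci and near-identical copies carry uncertain counts. The 5 summary lines of each table, 14.97% to 19.2% of its reads, were left out.

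The 8 libraries were fitted in 1 model in edgeR 4.0.16 (R 4.3.3), with TMM factors, group as the sole term and 4 residual degrees of freedom. The filter filterByExpr left 18251 of 55986 loci. The test was edgeR's quasi-likelihood F test, two-sided, and p-values were adjusted over all tested loci by Benjamini and Hochberg's method, with calls below 0.05. Standard errors (SE) come from the log2 fold change and the root of its F. CPM values use the TMM factors, and their scale is not per length, so levels are not compared between genes. Library ratios use a pseudocount of 0.5 CPM. The procedure was tested on simulated data.

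The comparison and the gene lists were chosen with earlier results of these data known. Named are all called loci in the lists, called loci outside them with a published name or family, which the files could not check, and the 2 largest rises and falls without a name among calls with a mean of at least 5 CPM in the higher group. Of each list described, the members of highest mean CPM are given, beside others chosen after their values were seen. Replicates differed by more than sampling noise, with a chi-square of 12.4 to 14.4 per degree of freedom. Alternatives were RLE factors, other low-count filters, robust and likelihood ratio tests, DESeq2 1.42.0, the 4 libraries alone and a replicate block. Others were a term for multiply aligned reads, a minimum fold applied to the main fit, and leaving out each library. The term for multiply aligned reads marked libraries with a share above 12%, and did not enter the share itself.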

Additional observations from a re-analysis of the deposited data

Results flagged for a closer look

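For 3 named loci the effect of the late shock differed between plants without and with an earlier shock, by a test of the difference itself in the edgeR model over all loci. The difference, on the log2 scale, was -5.28 for ABA8ox1 (SE 0.45, adjusted p = 0.0066). All libraries of the late-shock groups lay below the control without an earlier shock and above the vegetative-shock libraries with one. It kept its call in 14 of 16 alternatives and lost it without either reproductive-shock library. For NiR2 the difference was -2.20 (SE 0.26, adjusted p = 0.027), kept in 10 of 16 alternatives. For CIPK14 it was -1.40 (SE 0.19, adjusted p = 0.042), kept in 8 of 16, and lost under the term for multiply aligned reads and when each of 7 libraries was left out. These loci were selected because the reproductive shock changed them, and that contrast enters the difference.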

How the results depend on the processing

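No named locus changed direction under any of 18 alternatives. The groups did not overlap at any of these loci, so leaving out a library or refitting the same counts could hardly change a direction. The minimum fold was applied to the main fit itself. The main test called 112 loci, 41 higher and 71 lower. With no low-count filter it called 1291 (573 higher, 718 lower), with the likelihood ratio test 603 (270 and 333), with DESeq2 431 (209 and 222), and each of these sets held all 112. The 4 libraries alone gave 175 calls, 125 of them lower, and a minimum log2 fold change of 1 left 25 of the risers. Of the 112 loci, 93 were called in the 4 libraries alone and 99 with a replicate block. The term for a multiply aligned share above 12% gave 100 calls, 82 of them among the 112. RLE factors and the robust test each kept 108. Every fit that left out a library held only part of the 112. Over the fits without 1 of the 4 libraries compared, calls ranged from 1 to 74, with 0 to 9 higher and 1 to 65 lower. The sample titles do not say whether replicate numbers pair libraries. The deviations of same-numbered libraries had r = 0.12 between these groups and -0.15 to 0.25 over all pairs of groups. These values cannot decide it, since weak correlation does not exclude pairing. The fit with a replicate block called 131. Leaving out vegetative- or double-shock libraries, an alternative added after the data were seen, gave 89 to 143 calls (31 to 43 higher, 58 to 100 lower). Among the listed genes, 2 rose and 8 fell in the main test, 10 and 20 with DESeq2, and 24 and 50 with no low-count filter. The JAZ median stayed between -2.07 and -1.88. Ferredoxin kept its call in 18 of 18 alternatives, NiR2 in 17, NiR1 in 11 and JAZ6 in 14. These genes lay beyond the minimum fold, so that alternative could not remove their calls. With 2 libraries a group and 4 residual degrees of freedom, fits that lose a library have less power, and a lost call does not show that a locus did not differ. Low genes such as NIA2 and JAZ9 lie near the counting limit.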
